A study of Mus musculus with 23 samples.

Results

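The genes described are those of the mouse proteasome: every gene whose symbol in the array's probe annotation is Psma, Psmb, Psmc or Psmd followed by a number, without the interferon-induced Psmb8 and Psmb9. The symbol rule found 36 genes among the 12393 genes with a probe set of their own. All 36 passed the filter on low signals, which left 11164 genes tested. They comprised 16 genes of the 20S core (8 Psma and 8 Psmb) and 20 genes of the 19S cap (6 Psmc and 14 Psmd).

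The study profiled gastrocnemius, a calf muscle, of mice on Affymetrix arrays with 1 array per sample. Emerin knockout and lamin A/C knockout mice were set beside control mice, which the titles name as controls of the lamin A line, on days 0, 3 and 4 of a degeneration and regeneration course started by an injection. Control muscle had 2 arrays on each day. Emerin knockout muscle had 2 arrays on day 0 and 3 each on days 3 and 4, and lamin A/C knockout muscle had 3 arrays on each day, which makes 23 arrays in 9 groups. Control and emerin knockout muscle on day 0 is described as not injected, while the lamin A/C knockout samples of day 0 are described as taken at 0 days after injection. The injected agent, the strain, the age and the exact alleles are not given in the sources used here, and nothing says whether arrays of a group came from separate animals. The p-values therefore measure the spread between arrays, which may be technical.

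The proteasome is the cell's main machine for the breakdown of proteins tagged with ubiquitin. Its barrel, the 20S core, is built from rings of alpha subunits (Psma genes), which form the gate, and rings of beta subunits (Psmb genes), of which Psmb5, Psmb6 and Psmb7 carry the standard proteolytic sites. The 19S cap holds a ring of ATPases that unfold and thread the substrate (Psmc genes) and scaffold, receptor and deubiquitinating subunits (most Psmd genes). The grouping here goes by symbol, so the cap genes also include assembly chaperones, Psmd10 among them. In muscle the system removes myofibrillar proteins during wasting, and under interferon Psmb9, Psmb10 and Psmb8 take the places of Psmb6, Psmb7 and Psmb5 to form the immunoproteasome.

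Values are deposited MAS5 signals rescaled to a trimmed mean of 500 on each array. Differences are in log2(signal + 32) with their standard errors (SE), and a gene was called when its Benjamini-Hochberg adjusted p from limma over all 11164 genes was under 0.05. Signals of different genes come from different probes and are not set against each other. The tissue markers matched the label: all 8 skeletal muscle fibre markers were read, with a summed signal of 200016 to 265934 on the day 0 arrays. After injury that sum was 47376 to 110714, all 8 fibre markers fell in each genotype on both days, and all 10 macrophage markers rose, from a sum of 6082 to 10589 on day 0 to 38107 to 52198. Neutrophil markers summed to 1052 to 1774 on day 0 and 1513 to 4510 after injury, lymphocyte markers to 618 to 1527 and 582 to 1348, fibroblast markers to 35529 to 94318 and 46418 to 87771, and endothelial markers to 3092 to 4093 and 2744 to 3605. In control muscle the sum of 3 Schwann cell markers went from 5664 and 6340 on day 0 to 939 to 2661 after injury, and that of 4 adipocyte markers from 8645 and 8669 to 4933 to 5681, with 1 marker of each called lower on each day. Of the targeted genes, Emd was 153 to 465 on the emerin knockout arrays and 587 to 870.7 on all others, and the Lmna probe set was 53.0 to 109 on the lamin A/C knockout arrays and 650.0 to 5334 on all others. The ratio of the 3′ to the 5′ Gapdh probe set, a sign of RNA integrity, exceeded 2 on 5 arrays: all 3 of emerin knockout day 3 (3.62 to 6.09) and replicates 1 and 3 of emerin knockout day 4 (2.89 and 5.30). It was 0.822 to 1.64 on the other 18 arrays, including 1.40 on emerin knockout day 4 replicate 2.

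After injury most proteasome genes stayed within 1.5-fold of their day 0 level, while the others moved further. In control muscle 4 of the 36 genes rose and 5 fell by day 3 (25% called, against 34.3% of all genes tested), and 2 rose and 7 fell by day 4 (25%, against 33.8%). In emerin knockout muscle 4 rose and 12 fell by day 3 (44.4%, against 46.1%), and 3 rose and 12 fell by day 4 (41.7%, against 44.2%). In lamin A/C knockout muscle 4 rose and 12 fell by day 3 (44.4%, against 43% of all genes), and 1 rose and 15 fell by day 4 (44.4%, against 39.2%). The share of proteasome genes called was thus close to or below the share of all genes, except for a small excess in lamin A/C knockout muscle. Between days 3 and 4 none of the 36 was called in control (background 0.0448%), emerin knockout (1.17%) or lamin A/C knockout muscle (2.04%). At an unadjusted limma p under 0.05 the counts were 2, 3 and 6. Here and below, the background is the share of all genes called at an adjusted p under 0.05. No share of all genes at an unadjusted p is given, so the unadjusted counts cannot be set against the background. Without control day 0 replicate 1 the control counts were 4 on day 3 and 5 on day 4, and without control day 4 replicate 2 the day 4 count was 5. When arrays were scaled on their median instead, which moved the median change of all genes in control muscle by -0.11 on day 3, control muscle had no gene higher and 4 lower on day 3, and none higher and 5 lower on day 4; lamin A/C knockout muscle had 4 higher and 7 lower on day 3.

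The sizes of the changes were modest. In control muscle 29 of the 36 genes stayed within 1.5-fold of day 0 on day 3 (80.6%, against 59.3% of all genes) and 28 on day 4 (77.8%, against 59.3%). In emerin knockout muscle 23 stayed within that range on day 3 (63.9%, against 49.8%) and 24 on day 4 (66.7%, against 50.5%). In lamin A/C knockout muscle the counts were 26 (72.2%, against 57.4%) and 28 (77.8%, against 60.9%). The median over the 36 genes was 0.02 on day 3 and -0.04 on day 4 in control muscle, beside 0.09 and 0.03 for all genes. It was -0.14 and -0.07 in emerin knockout muscle (all genes -0.08 and -0.06), and -0.18 and -0.28 in lamin A/C knockout muscle (all genes -0.08 and -0.08). In this bulk tissue, fewer cells of a type and less RNA per cell cannot be told apart, and the part of the marker shifts in these values was not tested.

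**Figure D1:**
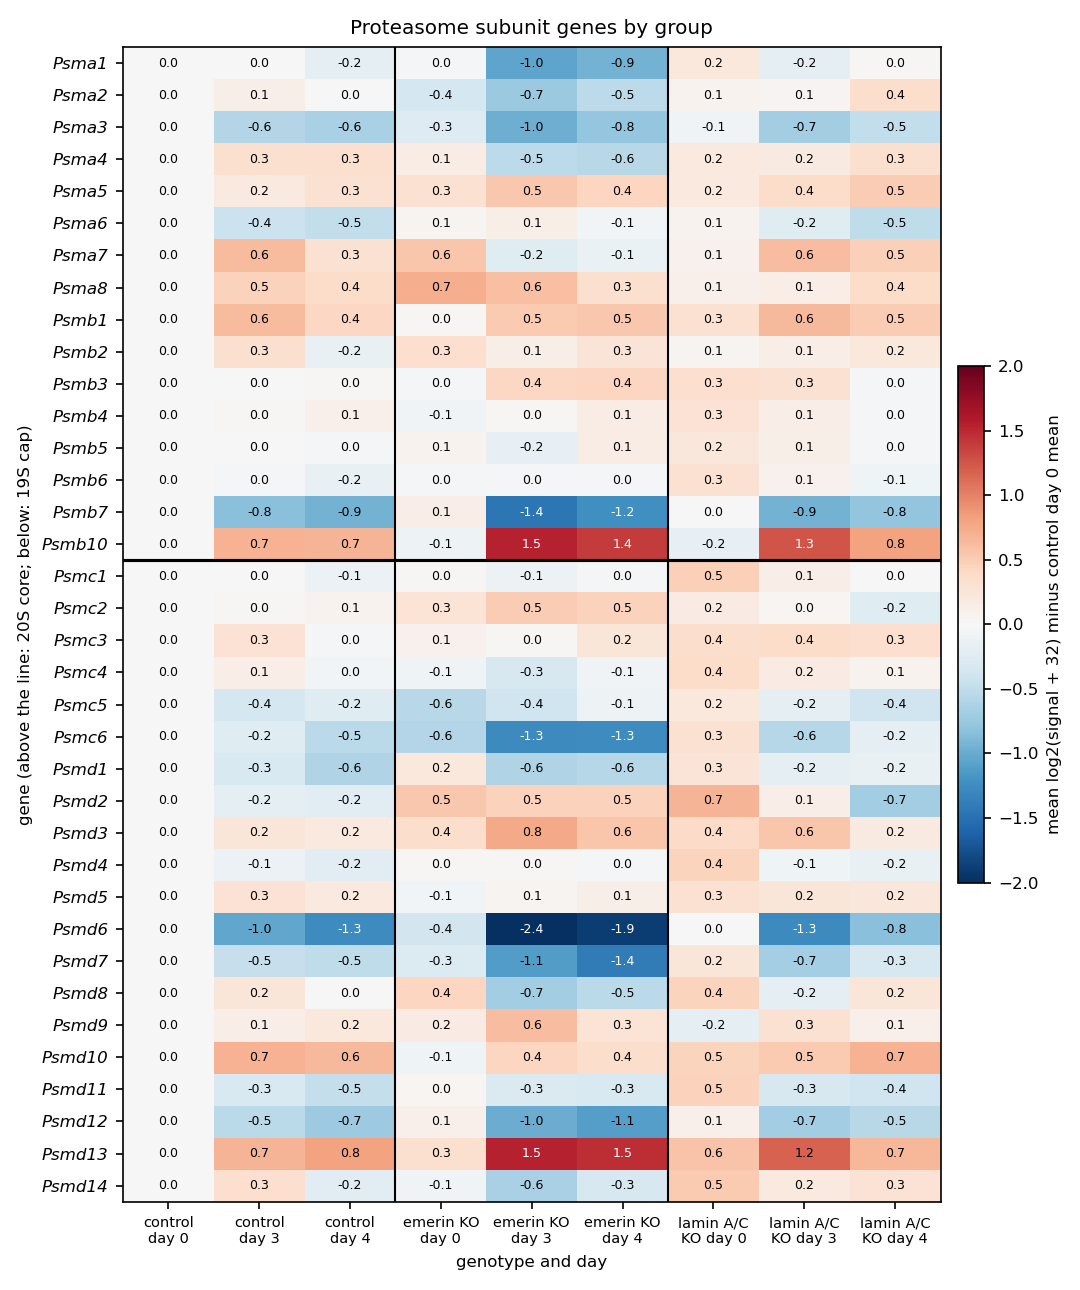
Mean log2(signal + 32) of each proteasome gene (rows; 20S core above the line, 19S cap below) in each of the 9 groups (columns), minus the control day 0 mean; red is higher and blue lower. Psmb7, Psma3, Psmd6 and Psmd12 are blue on days 3 and 4 in each genotype, Psmb10 and Psmd13 are red, and most other rows stay pale.

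Psma3 and Psmb7 of the core and Psmd6 and Psmd12 of the cap were called lower on both days in all 3 genotypes, and no other member was. The share of all genes called lower in each of these comparisons is not given here. The shared falls therefore describe the members and do not set them apart from other genes. Psma3 encodes an alpha-ring subunit, Psmb7 the trypsin-like catalytic subunit, and Psmd6 and Psmd12 are scaffold subunits of the lid of the 19S cap. Psmd1, the large scaffold of the base, and Psmd11, another lid subunit, also fell in all 3 genotypes on day 4. On emerin knockout day 4 neither was called with the Gapdh ratio as a covariate. The Psmd11 call was also lost there when the replicate number entered the fit. On control day 4 it was lost without probe sets open to related transcripts.

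Psmd6 had the widest range of all members over the 9 group means, from 898 in emerin knockout day 3 to 4761 in lamin A/C knockout day 0. In control muscle its signal was 4493 and 4968 on day 0, 2038 and 2537 on day 3, and 2082 and 1835 on day 4. In emerin knockout muscle it was 3683 and 3590 on day 0, then 894, 823 and 977 on day 3, and 1153, 1838 and 892 on day 4. In lamin A/C knockout muscle it was 5096, 4059 and 5127 on day 0, 2103, 2044 and 1673 on day 3, and 2473, 2591 and 2827 on day 4. Every injured array was below every uninjured array of its genotype. With 2 or 3 arrays per group such a separation was common. Between day 0 and days 3 and 4, 67.3% and 65.8% of all genes tested did not overlap in control muscle. The shares were 57.8% and 59.8% in emerin knockout muscle and 55% and 50.7% in lamin A/C knockout muscle. The log2 change was -1.04 (SE 0.22, adjusted p = 0.000691) by day 3 and -1.26 (SE 0.22, adjusted p = 0.000109) by day 4 in control muscle. It was -1.98 (SE 0.20) and -1.53 (SE 0.20) in emerin knockout muscle, and -1.28 (SE 0.18) and -0.84 (SE 0.18) in lamin A/C knockout muscle.

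Psmb7 was 12538 and 12030 on the control day 0 arrays, 5724 and 8257 on day 3, and 6239 and 6552 on day 4. The emerin knockout values were 12779 and 14314, then 4524, 4472 and 4463, then 5202, 5958 and 4691. The lamin A/C knockout values were 13000, 11186 and 12643, then 6423, 6148 and 6596, then 6414, 7679 and 7304. All day 0 arrays lay above all injured arrays. The log2 change was -0.83 (SE 0.16) and -0.94 (SE 0.16) in control muscle on days 3 and 4, -1.59 (SE 0.14) and -1.36 (SE 0.14) in emerin knockout muscle, and -0.94 (SE 0.13) and -0.78 (SE 0.13) in lamin A/C knockout muscle, with adjusted p from 6.28e-09 to 0.000213.

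Psma3 was 5363 and 5293 in control muscle on day 0, 3271 and 3871 on day 3, and 3348 and 3440 on day 4. Its log2 changes were -0.58 (SE 0.16) and -0.65 (SE 0.16) in control, -0.71 (SE 0.14) and -0.51 (SE 0.14) in emerin knockout, and -0.62 (SE 0.13) and -0.42 (SE 0.13) in lamin A/C knockout muscle, with adjusted p between 0.000273 and 0.0109. Psmd12 was 2326 and 2237 in control muscle on day 0, 1385 and 1757 on day 3, and 1357 and 1380 on day 4. Its log2 changes were -0.54 (SE 0.16) and -0.72 (SE 0.16), -1.09 (SE 0.15) and -1.20 (SE 0.15), and -0.80 (SE 0.13) and -0.65 (SE 0.13) in the same order. For both genes the uninjured and injured arrays of each genotype did not overlap, beside the shares of all genes given for Psmd6. Some of these calls depended on the processing or on 1 array. The Psma3 call was lost on control day 3 with quantile normalization, on lamin A/C knockout day 4 with median scaling, and on emerin knockout day 4 under 4 of 12 other processing choices (-0.51 to -0.26 over all 12). With the Gapdh ratio as a covariate, Psma3 and Psmd12 were not called on emerin knockout day 3. Without control day 3 replicate 1 the Psma3 and Psmd12 calls of control day 3 were lost, as was that of Psmd12 without control day 0 replicate 1 and that of Psma3 on emerin knockout day 4 without emerin knockout day 0 replicate 2.

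Promoters are shown here for some of the genes that moved together and for other catalytic genes. Windows from 250 bases before to 50 bases after the start site (RefSeq, GRCm38.p6) were available for 29 of the 36 genes. They were searched on both strands for TGACNNNGC, the core of the antioxidant response element read by Nrf1 and Nrf2, factors known to drive proteasome genes under stress, and for the box CCAAT, and no gene held both. TGACNNNGC was in the windows of 5 of the 29 genes (17.2%; Psmb5, Psmb6, Psmc6, Psmd9 and Psmd12), beside 16.3% of the genes with a probe set and 14% of all genes in the table. CCAAT was in 11 of the 29 (37.9%), beside 42.3% and 41.1%. The 250 bases before the start are printed 5′ to 3′ on the gene's strand for the fallers Psma3, Psmd6 and Psmd12, for the catalytic genes Psmb5 and Psmb6, and for Psmb10. Capitals mark matches to either motif.
Psma3 (chr12:70974373-70974622, + strand): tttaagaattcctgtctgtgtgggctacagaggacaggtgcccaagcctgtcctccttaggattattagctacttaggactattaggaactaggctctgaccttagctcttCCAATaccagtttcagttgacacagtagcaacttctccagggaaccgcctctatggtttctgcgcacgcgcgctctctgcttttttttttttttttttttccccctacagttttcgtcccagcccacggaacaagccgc
Psmd6 (chr14:14120946-14121195, - strand): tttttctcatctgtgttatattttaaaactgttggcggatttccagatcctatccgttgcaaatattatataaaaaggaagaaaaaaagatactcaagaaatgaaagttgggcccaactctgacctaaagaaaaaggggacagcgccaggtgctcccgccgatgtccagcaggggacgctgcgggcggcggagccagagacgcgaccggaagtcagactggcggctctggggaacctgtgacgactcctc
Psmd12 (chr11:107479278-107479527, + strand): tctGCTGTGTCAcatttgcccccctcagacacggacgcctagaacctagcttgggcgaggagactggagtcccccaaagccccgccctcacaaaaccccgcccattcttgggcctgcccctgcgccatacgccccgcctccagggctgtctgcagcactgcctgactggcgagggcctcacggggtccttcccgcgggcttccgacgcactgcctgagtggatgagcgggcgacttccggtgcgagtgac
Psmb5 (chr14:54617996-54618245, - strand): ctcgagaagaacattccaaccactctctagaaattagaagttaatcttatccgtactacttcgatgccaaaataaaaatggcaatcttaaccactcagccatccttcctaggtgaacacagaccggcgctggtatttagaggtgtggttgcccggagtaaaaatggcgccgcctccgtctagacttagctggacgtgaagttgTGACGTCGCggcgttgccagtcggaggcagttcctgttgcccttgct
Psmb6 (chr11:70525107-70525356, + strand): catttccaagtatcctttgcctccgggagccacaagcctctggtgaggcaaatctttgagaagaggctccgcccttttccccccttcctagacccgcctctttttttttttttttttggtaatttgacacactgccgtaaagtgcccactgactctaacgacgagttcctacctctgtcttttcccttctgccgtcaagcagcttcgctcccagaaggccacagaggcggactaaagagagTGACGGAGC
Psmb10 (chr8:105938393-105938642, - strand): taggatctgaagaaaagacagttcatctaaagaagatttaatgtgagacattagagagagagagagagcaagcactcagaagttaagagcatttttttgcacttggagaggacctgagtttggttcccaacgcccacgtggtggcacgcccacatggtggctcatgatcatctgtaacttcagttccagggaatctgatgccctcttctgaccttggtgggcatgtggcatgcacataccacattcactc
In the printed bases the match of Psmb5 starts 47 bases before the start site, that of Psmb6 9 bases before it and that of Psmd12 247 bases before it, while Psma3 has CCAAT 139 bases before it. Psmd6 and Psmb10 hold neither run of letters here. A match is a description of the sequence only.

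**Figure D2:**
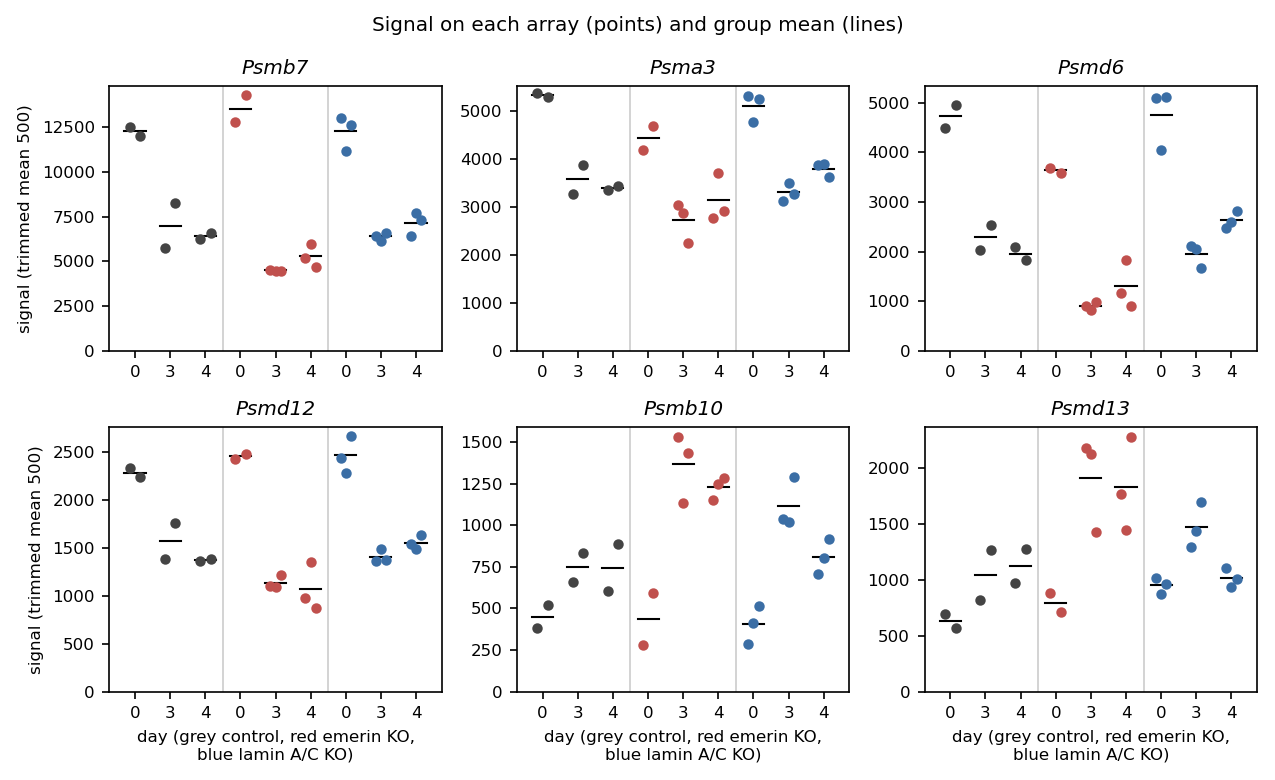
Signal (rescaled to a trimmed mean of 500) of 6 proteasome genes on each of the 23 arrays (points) by genotype and day, with the group mean as a line. Injured arrays lie below day 0 arrays of their genotype for Psmb7, Psma3, Psmd6 and Psmd12 and above them for Psmb10.

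The 3 standard catalytic subunits did not move together after injury. Psmb5 (chymotrypsin-like site) was 3461 and 3825 in control muscle on day 0, 3093 and 4320 on day 3, and 3325 and 3859 on day 4, and these groups overlapped. Its log2 change was 0.01 (SE 0.16) and -0.02 (SE 0.16) in control, -0.23 (SE 0.14) and 0.08 (SE 0.14) in emerin knockout, and -0.11 (SE 0.13) and -0.26 (SE 0.13) in lamin A/C knockout muscle, with no call. Psmb6 (caspase-like site) was 3045 and 3061 in control muscle on day 0, 2707 and 3309 on day 3, and 2680 and 2800 on day 4. It was called once, in lamin A/C knockout muscle on day 4 (-0.38, SE 0.11, adjusted p = 0.00948), where its arrays went from 3842, 3470 and 3985 to 2738, 2751 and 3183. Its other 5 changes lay between -0.21 and 0.01. Psmb7, with the third site, fell throughout as given above.

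Psmb10, the interferon-induced counterpart of Psmb7, went the other way. It was 380 and 522 on the control day 0 arrays, 657 and 835 on day 3, and 604 and 886 on day 4. In emerin knockout muscle it was 282 and 593, then 1527, 1135 and 1436, then 1153, 1246 and 1285. In lamin A/C knockout muscle it was 289, 413 and 517, then 1039, 1021 and 1288, then 704, 804 and 918. The injured arrays of each genotype were all above its day 0 arrays. In the separate comparisons with day 0, 50.7% to 67.3% of all genes tested also did not overlap. The rise was called in emerin knockout (1.65, SE 0.25, and 1.51, SE 0.25) and lamin A/C knockout muscle (1.42, SE 0.23, and 0.97, SE 0.23), while the control values of 0.69 (SE 0.28, adjusted p = 0.0592) and 0.68 (SE 0.28, adjusted p = 0.0661) were not called. The difference in this rise between a knockout and the controls was 0.29 to 0.95 and was not called. Of the other immunoproteasome subunits, which are not counted among the 36, Psmb8 rose by 1.57 and 1.58 in control, 1.96 and 1.82 in emerin knockout and 1.49 and 1.67 in lamin A/C knockout muscle, and Psmb9 by 0.99 and 1.03, 1.93 and 1.90, and 1.30 and 1.42. Macrophages express these genes too, and their markers rose on the same arrays, and their part was not tested.

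**Figure D3:**
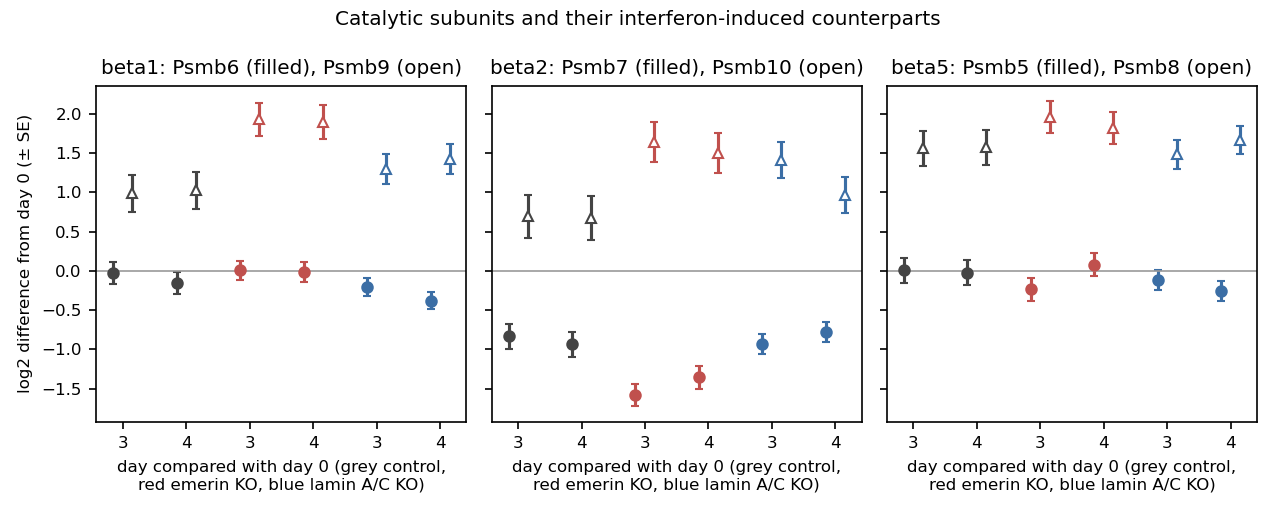
Log2 difference from day 0 (± SE) of each standard catalytic subunit (filled circles) and its interferon-induced counterpart (open triangles) on days 3 and 4 in each genotype. Psmb8, Psmb9 and Psmb10 lie above 0 throughout, Psmb5 and Psmb6 lie near 0 (-0.38 to 0.08), and Psmb7 lies between -1.59 and -0.78.

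Among the other 20S genes, Psmb1, a structural beta subunit, rose in control muscle by day 3 (from 1985 and 1918 to 2763 and 3362; 0.64, SE 0.21, adjusted p = 0.0225) and in emerin knockout muscle on both days (0.50, SE 0.19, and 0.52, SE 0.19). The mean of the Psmb1 probe sets turned these rises to -0.30, -0.21 and -0.30, so the direction depends on the probe set read. Psma6, an alpha subunit, fell in control muscle on both days (-0.42, SE 0.15, and -0.49, SE 0.15) and in lamin A/C knockout muscle on day 4 (-0.58, SE 0.12). None of these Psma6 falls was called with the mean of all probe sets. That of control day 3 was also not called without probe sets open to related transcripts. Psma7, another alpha subunit, rose in control (0.64, SE 0.23) and lamin A/C knockout muscle (0.53, SE 0.19) by day 3. In the lamin A/C knockout muscle of day 4, Psmb4 also fell (-0.32, SE 0.12). That call was lost with the mean of all probe sets and when the replicate number entered the fit. Psma8, the testis-type alpha subunit, was at 14.9 to 143 over all 23 arrays, near the filter of 100, and was not called in any of the 22 comparisons.

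In the 19S cap, falls outnumbered rises in every comparison with day 0 but that of control muscle on day 3. The counts of the 20 genes were 2 up and 2 down, then 2 up and 4 down, in control muscle on days 3 and 4. They were 2 up and 7 down, then 1 up and 7 down, in emerin knockout muscle, and 2 up and 10 down, then none up and 10 down, in lamin A/C knockout muscle. Of all genes tested, 20.1% were higher and 14.2% lower in control muscle by day 3, 23.9% and 22.2% in emerin knockout muscle, and 23.4% and 19.6% in lamin A/C knockout muscle; on day 4 the shares were 19.5% and 14.3%, 23.5% and 20.8%, and 21% and 18.2%.

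The main rise in the cap was that of Psmd13, a lid subunit. It was 691 and 568 on the control day 0 arrays, 825 and 1270 on day 3, and 977 and 1281 on day 4. In emerin knockout muscle it went from 881 and 711 to 2178, 2129 and 1428 on day 3 and 1767, 1447 and 2284 on day 4. In lamin A/C knockout muscle it went from 1017, 875 and 969 to 1295, 1437 and 1698, then back to 1108, 938 and 1006, which overlaps day 0. The log2 change was 0.68 (SE 0.24, adjusted p = 0.0278) and 0.80 (SE 0.24, adjusted p = 0.0104) in control muscle, 1.21 (SE 0.21) and 1.15 (SE 0.21) in emerin knockout muscle, and 0.61 (SE 0.19, adjusted p = 0.0133) on day 3 in lamin A/C knockout muscle. Psmd10, known as gankyrin and an assembly chaperone of the cap, rose in control muscle (0.69, SE 0.24, and 0.64, SE 0.24) from a low signal of 129 and 160 to 240.1 to 256.

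Lamin A/C knockout muscle had the most cap genes called lower. It had 3 arrays on each day against 2 in control muscle, so the counts of these genotypes cannot be compared directly. On its day 0 arrays the median over the cap genes was 0.30 to 0.38 above the control day 0 mean. The part of the array number and of this day 0 level was not tested. With median scaling the falls in lamin A/C knockout muscle over all 36 genes were 7 on day 3 and 9 on day 4. Psmd2, the base scaffold next to Psmd1, was 5452, 5512 and 6858 on day 0, 3881, 3409 and 4854 on day 3, and 2471, 2043 and 2270 on day 4. The 3 groups did not overlap. Of all genes tested, 55% did not overlap between days 0 and 3, 50.7% between days 0 and 4, and 25.8% between days 3 and 4. The change of Psmd2 was -0.56 (SE 0.22, adjusted p = 0.0429) by day 3 and -1.38 (SE 0.22, adjusted p = 2.44e-05) by day 4. Between days 3 and 4 it was -0.82, and its adjusted p of 0.0504 was the lowest of the 36 genes there. Psmd4, a ubiquitin receptor, fell from 3555, 3362 and 3841 to 2193, 2445 and 2775 and then 2417, 2157 and 2509 (-0.54, SE 0.13, and -0.60, SE 0.13). Psmd11 fell from 7638, 8114 and 6980 to 4195, 4385 and 4655 and then 4023, 4476 and 3990 (-0.77, SE 0.12, and -0.86, SE 0.12). In control muscle the same genes were at -0.11 (Psmd4) and -0.30 (Psmd11) on day 3, and Psmd11 was called lower on day 4, with the limit given above. The difference between the genotypes in these changes was not called. Psmd14, the deubiquitinase of the lid, was not called in control or lamin A/C knockout muscle on either day (-0.32 to 0.33).

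Genes that work with the complex were read from lists, whose counts stand beside the shares of all genes given above (by day 3, 20.1% higher and 14.2% lower in control muscle, 23.9% and 22.2% in emerin knockout muscle, and 23.4% and 19.6% in lamin A/C knockout muscle). Of 20 assembly factors, activators and regulators, 4 fell and none rose in control muscle by day 3, and 5 fell and none rose by day 4. Psme4, which encodes the activator PA200, Ecpas, a proteasome adaptor, Zfand5, a proteasome activator of atrophying muscle, and the transcription factor gene Nfe2l1 (Nrf1) fell in all 3 genotypes on both days. Ecpas changed by -1.92, -2.05 and -1.69 by day 3 and Psme4 by -1.19, -1.61 and -1.27, in control, emerin knockout and lamin A/C knockout muscle. Of 14 muscle ubiquitin ligases, 7 fell and none rose in control muscle by day 3, 9 and none in emerin knockout muscle, and 7 and none in lamin A/C knockout muscle. Asb10 and Asb14, whose products are substrate receptors of cullin ligases, changed by -3.89 and -3.40 in control muscle. Of 10 interferon-induced genes of antigen processing (Psmb8 and Psmb9 among them), 8, 7 and 9 rose by day 3 in the 3 genotypes and none fell. Of 23 genes for ubiquitin conjugation and delivery, 3 rose and 8 fell in control muscle by day 3, among them Ube2b (-1.95) and Ube2d1 (-1.93), both E2 enzymes.

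The changes of the 36 genes by day 3 had a Pearson correlation of 0.835 between control and lamin A/C knockout muscle, 0.649 between control and emerin knockout muscle and 0.792 between the knockouts, beside 0.886, 0.845 and 0.878 over all genes. By day 4 the values were 0.754, 0.743 and 0.463, beside 0.859, 0.842 and 0.83. These pairs share no array, genes are not independent replicates, and the values are a description.

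In uninjured muscle no proteasome gene was called between either knockout and the controls. For emerin knockout minus control the background was 3.26% and 4 of the 36 had an unadjusted p under 0.05. For lamin A/C knockout minus control the background was 0.896%, counted at an adjusted p under 0.05. At an unadjusted p under 0.05, for which no share of all genes is given, 11 of the 36 genes passed. In that second comparison 19 of the 20 cap genes were higher in lamin A/C knockout muscle, with a median of 0.36. Of 16 core genes 13 were higher, with a median of 0.14, beside a median of 0.04 over all genes tested. The share of all genes above 0 is not given. Genes read on the same arrays are not independent replicates, so these counts are a description. On single arrays the median over the cap genes was 0.30 to 0.38 above the control day 0 mean in the 3 lamin A/C knockout arrays, -0.06 and 0.06 in the 2 control arrays and 0.01 and 0.11 in the 2 emerin knockout arrays. The smallest adjusted p was that of Psmc1, an ATPase (0.47, SE 0.13, adjusted p = 0.0956), followed by Psmd11 (0.46, SE 0.14, adjusted p = 0.144). Under the other processing choices tried, that median stayed between 0.28 and 0.37, and between 0.30 and 0.40 with any 1 array left out. The lamin A/C knockout arrays of day 0 are the ones described as 0 days after injection, and the part of this was not tested. Of the 10 macrophage markers, 2 were higher in lamin A/C knockout than in control muscle on day 0 (summed signal 8638 to 10589 against 6082 to 7432), and their part was not tested. Against lamin A/C knockout, 3 cap genes were lower in emerin knockout muscle on day 0 (8.33% of the 36 genes, against 6.3% of all genes, 2.11% higher and 4.18% lower): Psmc6 (-0.89, SE 0.21), Psmd14 (-0.59, SE 0.16) and Psmc1 (-0.45, SE 0.13). None of the 3 was called without emerin knockout day 0 replicate 2.

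**Figure D4:**
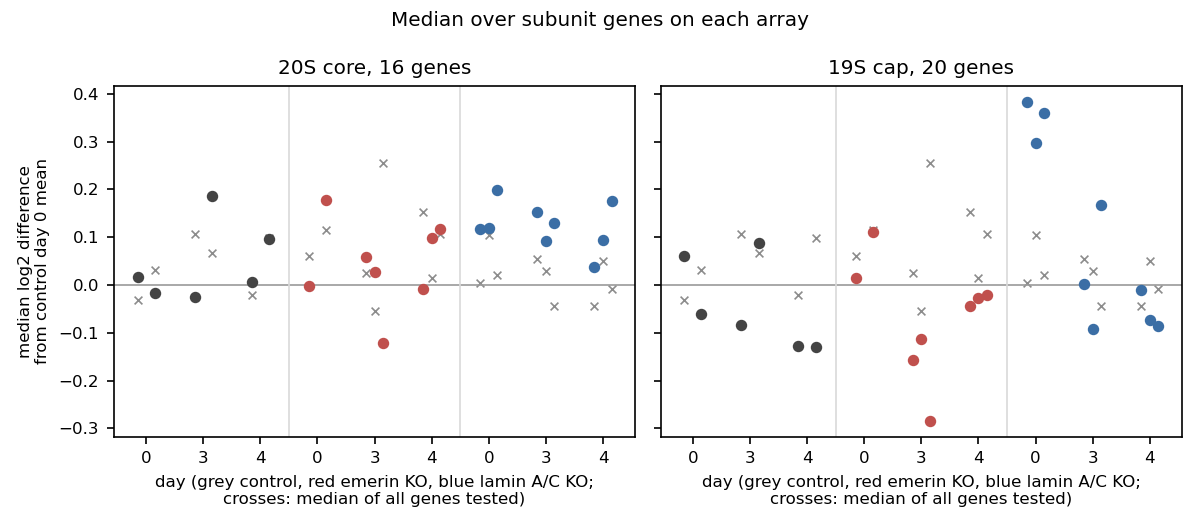
Median log2 difference from the control day 0 mean over the 16 core genes (left) and the 20 cap genes (right) on each array (filled points), with the median of all genes tested as crosses. The 3 lamin A/C knockout arrays of day 0 stand at 0.30 to 0.38 in the right panel, above all other arrays.

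After injury lamin A/C knockout and control muscle were not told apart in any proteasome gene. On day 3 the background was 0.0269% and 2 of the 36 genes had an unadjusted p under 0.05; on day 4 it was 0.0448% and 5 genes. No change from day 0 differed between lamin A/C knockout and control muscle either (background 0.17% for day 3 and 0.206% for day 4; 4 and 3 genes at an unadjusted p under 0.05). The day 3 interaction was below 0 in 33 of the 36 genes, for which no share of all genes is given. Its median was -0.24 beside -0.08 for all genes. With median scaling these medians were -0.04 and 0.10, so the number below 0 depends on the scaling. It holds the day 0 arrays of the preceding paragraph with opposite sign, so both describe 1 difference.

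Against control, the most proteasome genes were called in emerin knockout muscle on day 3: 4 genes were higher and 11 lower (41.7% called, against 16.3% of all genes tested, 7.38% higher and 8.92% lower). The lower genes were Psma1, Psma2, Psma4, Psma7 and Psmb7 of the core and Psmc6, Psmd6, Psmd7, Psmd8, Psmd12 and Psmd14 of the cap, and the higher ones Psma6, Psmb10, Psmd3 and Psmd13. Against lamin A/C knockout on day 3, 8 genes were lower and none higher (22.2%, against 9.95% of all genes, 3.96% higher and 5.99% lower). On day 4 emerin knockout muscle had 4 lower genes and none higher against control (11.1%, against 5.87%, with 2.58% higher and 3.29% lower), and 11 lower and 4 higher against lamin A/C knockout (41.7%, against 16.4%, with 8.4% higher and 8.02% lower). Comparisons with control and with lamin A/C knockout share the emerin knockout arrays. Against control, the day 3 count was 7 without control day 3 replicate 2. The day 4 count was 0 without control day 4 replicate 1 or emerin knockout day 4 replicate 1 or 3, 12 without emerin knockout day 4 replicate 2, and moved by over 1.5 times with any of 14 single arrays left out. Against lamin A/C knockout, the day 3 count was 5 without lamin A/C knockout day 3 replicate 1, and the day 4 count was 8 without emerin knockout day 4 replicate 3.

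Psmd14 was 2463 and 3179 in control muscle on day 3, 1709, 1275 and 1289 in emerin knockout muscle and 2456, 2812 and 2419 in lamin A/C knockout muscle. The emerin knockout arrays lay below all others. Of all genes tested, 41.3% did not overlap between emerin knockout and control on day 3, and 28.6% between the knockouts. The difference of Psmd14 from control was -0.97 (SE 0.16, adjusted p = 0.000305) and from lamin A/C knockout -0.84 (SE 0.14, adjusted p = 0.000796). On day 4 the emerin knockout values were 1844, 1913 and 1555 against 1972 and 1827 in control muscle, and that difference was not called (-0.10, SE 0.16). Psmd6, whose values are given above, differed from control by -1.31 (SE 0.20, adjusted p = 0.000188) on day 3. With the mean of all probe sets in place of the brightest, Psmd6 (-0.75), Psma1 and Psmd7 were not called there, and Psmd6 was at 0.051 against lamin A/C knockout. Psma1, an alpha subunit, was 1314 and 1263 in control, 619, 521 and 675 in emerin knockout and 1292, 1136 and 975 in lamin A/C knockout muscle on day 3 (-1.06 against control, SE 0.22, adjusted p = 0.00257). With the Gapdh ratio as a covariate the Psma1 difference turned to 0.20 against control and 0.10 against lamin A/C knockout. Psmc6, an ATPase, was 1735 and 1951 against 674, 1033 and 985 (-1.03, SE 0.21, adjusted p = 0.00176).

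The change from day 0 itself differed between emerin knockout and control muscle for 3 genes by day 3, all toward lower values (8.33% of the 36, against 2.64% of all genes, 1.42% higher and 1.22% lower). Psma7 differed by -1.43 (SE 0.31, adjusted p = 0.0177), Psmd8, a lid subunit, by -1.37 (SE 0.35, adjusted p = 0.0401), and Psmd14 by -0.90 (SE 0.24, adjusted p = 0.0436). Psmd8 was 2112 and 1870 on day 0 and 2176 and 2570 on day 3 in control muscle, and 2156 and 3386 on day 0 and 1127, 1175 and 1372 on day 3 in emerin knockout muscle. None of these 3 was called after median scaling, and none was called without control day 0 replicate 1 or 2, control day 3 replicate 2 or emerin knockout day 0 replicate 2; without emerin knockout day 4 replicate 2 or 3 the count was 6. By day 4 no gene was called in this test (background 0.573%; 6 genes at an unadjusted p under 0.05).

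The 5 arrays with a Gapdh ratio above 2 are all emerin knockout arrays of days 3 and 4, so these differences were set beside the ratio. For all 11 genes called lower on day 3, emerin knockout day 4 replicate 2, with a ratio of 1.40, had the highest signal of the 3 day 4 arrays; over all 36 genes it was the highest in 18, the lowest in 11 and between in 7. Psmd6 was 1838 on that array and 1153 and 892 on the other two, Psmd8 was 2190 against 1190 and 961, and Psma1 was 993 against 619 and 442. Against the 2 control arrays of day 4, replicate 2 was below both in 7 of the 11 genes, between them in 3 and above both in 1, while replicate 1 was below both in 10 and replicate 3 in all 11. Psma4 was 2016 in replicate 2 and 2920 and 3979 in control muscle. With the ratio as a covariate, no proteasome gene was called between emerin knockout and control on day 3 or 4 (0.0806% and 0.179% of all genes called), or between the knockouts on those days. Without the 5 arrays, no gene was called on day 4 in either comparison (0.206% and 0.376% of all genes), but that arm then holds 1 array, assumed to vary like the other groups. The differences from control for the 4 genes called on day 4 went from -0.77 to -0.18 (Psma1), from -0.88 to -0.75 (Psma4), from -0.71 to -0.17 (Psmc6) and from -0.90 to -0.39 (Psmd7). On day 3 all 3 emerin knockout arrays had a ratio of at least 3.62, so on that day genotype and ratio cannot be told apart. On day 3, 3 of the 8 fibre markers were lower in emerin knockout than in control muscle (summed signal 47376 to 59835 against 65718 to 103053), and of the 10 macrophage markers 3 were higher and 1 lower (44658 to 47350 against 40321 to 42290). Of the 7 fibroblast markers 3 were lower (46418 to 53682 against 71856 to 73417), of the 7 neutrophil markers tested none was called (2292 to 2931 against 3905 to 3969), and of the 4 adipocyte markers 1 was lower (4451 to 5243 against 4933 to 5681). The part of these marker shifts was not tested.

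Probe sets of the same gene disagreed in these arrays. Beside the brightest probe set used above, 16 of the 36 genes had 25 further ones, of which 13 pointed the other way from the brightest one in emerin knockout day 3 minus day 0, compared with 7 in control and 5 in lamin A/C knockout muscle. Psma7 is the clearest case. Its brightest probe set went from 1673 and 2026 on emerin knockout day 0 to 1032, 1021 and 1096 on day 3, while the other went from 1136 and 936 to 1434, 1595 and 1581. Both were called when each probe set was fitted by itself, in opposite directions (-0.79, SE 0.21, and 0.56, SE 0.16). In control muscle both Psma7 probe sets rose (0.64, SE 0.23, and 0.55, SE 0.17). The brightest probe set of Psma6, whose name marks it as able to read related transcripts, was higher in emerin knockout than in control muscle on day 3 (0.54, SE 0.14), and another probe set of Psma6 was lower (-0.74, SE 0.16). The direction of Psma6 and Psma7 in emerin knockout muscle is therefore uncertain, as is that of Psma1 on day 3, which the Gapdh covariate turned, and that of Psmd6 against lamin A/C knockout on day 3.

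The day changes within emerin knockout muscle also differed when the ratio entered the fit. The ratio was 0.914 to 1.34 on the day 0 arrays and 3.62 to 6.09 on those of day 3. Ratio and day therefore cannot be told apart between these days. Over all genes tested, the share called on day 3 went from 46.1% to 25.2%. With the ratio as a covariate 3 of the 16 day 3 calls remained, the falls of Psmb7 and Psmd6 and the rise of Psmb10. Psmd6 was then at -0.97 in place of -1.98, and Psma3 and Psmd12 were not called (Psmd12 at -0.54 in place of -1.09). On day 4 the same adjustment kept the falls of Psmb7, Psmd6, Psmd7 and Psmd12 and the rises of Psmb10 and Psmd13. Without the 5 arrays, when day 4 rests on 1 array assumed to vary like the other groups, the calls were the falls of Psmb7, Psmd1, Psmd6, Psmd7 and Psmd12 and the rises of Psmb10 and Psmd13.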

How the data were processed

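Each of the 23 arrays gave 22690 probe set intensities, which the authors deposited as MAS5 signals (per the submitters' processing notes; no version is given). Their trimmed means, with 2% cut at each end, were 150.04 to 150.06. Signals were multiplied to bring that mean to 500, and 32 was added before log2. Symbols came from the platform's annotation (20380 probe sets with 1 symbol, 691 with several, 1555 with none listed, 64 controls), and the brightest probe set stood for a gene. A gene was tested if its signal reached 100 on 2 arrays.

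All 9 groups entered 1 fit in limma 3.58.1 (R 4.3.3; 14 residual degrees of freedom, intensity trend), with Benjamini-Hochberg adjustment within each of 22 comparisons. The fit was also run on simulated independent values with changes added to 1 group. That run held no shift in RNA integrity and no disagreement of probe sets, and no result here rests on it. MAS5 signals carry no counts, so precision rests on the number of arrays. Control arrays serve both knockouts. No 2 arrays held identical values.

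The members and lists were chosen with earlier results of these data known. Full values were given to the catalytic subunits, Psmb10, Psmd4, Psmd14, and up to 3 called members of the core and cap with the largest rise and fall; Psma3, Psmb7, Psmd6 and Psmd12 were added in the day comparisons after their values were seen, as was the fit of each probe set by itself. Other normalizations, pseudocounts, filters, probe set rules, variance models, a replicate block, the Gapdh ratio and single arrays left out were tried. Figures were drawn with matplotlib 3.10.9.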

Additional observations from a re-analysis of the deposited data

Results flagged for a closer look

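The change from day 0 to day 3 differed between emerin knockout and control muscle for 3 proteasome genes, by the interaction term of the limma fit. Psma7 differed by -1.43 (SE 0.31, adjusted p = 0.0177): its brightest probe set was higher on both control arrays of day 3 than on either of day 0 and lower on all 3 emerin knockout arrays of day 3 than on either of day 0. In the fit of each probe set by itself, the other Psma7 probe set differed by 0.01 (SE 0.23) and was not called. Psmd8 differed by -1.37 (SE 0.35, adjusted p = 0.0401), and Psmd14 by -0.90 (SE 0.24, adjusted p = 0.0436). With the Gapdh ratio as a covariate none of the 36 genes was called in this test, beside 0.143% of all genes; the 3 emerin knockout arrays of day 3 had ratios of 3.62 to 6.09.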

How the results depend on the processing

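The counts below are of the 36 genes called. Median scaling gave 4 (control day 3 minus day 0), 5 (control day 4 minus day 0), 10 (lamin A/C knockout day 4 minus day 0), 2 (emerin knockout minus control, day 4), 1 (emerin knockout minus lamin A/C knockout, day 0) and 0 (emerin interaction, day 3). The Gapdh covariate gave 3 (emerin knockout day 3 minus day 0), 7 (day 4 minus day 0), 1 (day 4 minus day 3), 0 against control on days 3 and 4, 7 against lamin A/C knockout on day 0 and 0 on days 3 and 4, and 0 for the day 3 interaction. Without the 5 arrays of high ratio the counts were 7 (emerin knockout day 4 minus day 0), 1 against control on day 0, 0 against control and lamin A/C knockout on day 4, and 1 (lamin A/C knockout day 4 minus day 3). Fits of only the compared groups gave 8 and 1 (emerin knockout minus control, days 3 and 4), 0 (emerin interaction, day 3), and 1 each for lamin A/C knockout day 4 minus day 3 and its day 4 interaction. Quantile normalization gave 1 for lamin A/C knockout day 4 minus day 3, 1 on day 0 between lamin A/C knockout and control, and 5 for the emerin interaction of day 3; a pseudocount of 100 gave 1 for lamin A/C knockout day 4 minus day 3. The mean of probe sets gave 1 and 5 (emerin knockout minus lamin A/C knockout, days 0 and 3), and no intensity trend gave 2 (emerin knockout minus control, day 4), 1 (emerin knockout minus lamin A/C knockout, day 0) and 1 (emerin interaction, day 3). The cause was not tested.

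With 1 array left out, counts ranged from 4 to 10 and 5 to 11 (control, days 3 and 4 minus day 0), 13 to 19 and 11 to 16 (emerin knockout), 12 to 17 and 11 to 17 (lamin A/C knockout), and 0 to 1 for day 4 minus day 3 in either knockout. They ranged from 7 to 17 and 0 to 12 (emerin knockout minus control, days 3 and 4), 0 to 5, 5 to 10 and 8 to 18 (emerin knockout minus lamin A/C knockout, days 0, 3 and 4), and 0 to 6 and 0 to 1 (emerin interaction, days 3 and 4).

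Of 100 calls of named genes, 31 stood under every other alternative and 57 with any 1 array left out. Of the values, 11 reversed. The mean of probe sets turned Psmb1 to -0.30 (control day 3), -0.21 and -0.30 (emerin knockout days 3 and 4) and Psmd6 to 0.051 (emerin knockout minus lamin A/C knockout, day 3). The Gapdh covariate turned Psma1 to 0.13 (emerin knockout day 3 minus day 0), 0.20 (minus control) and 0.10 (minus lamin A/C knockout), and Psma6 to -0.0050 (minus control, day 3). Without probe sets open to related transcripts, Psma6 was -0.74 (emerin knockout minus control, day 3) and -0.49 (minus lamin A/C knockout, day 4), and Psmc2 -0.32 (same comparison).

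Deviations of arrays with the same replicate number correlated at a mean of 0.04 (82 pairs), beside -0.02 for other pairs (152). Of the 23 arrays, 11 correlated best with their own number. These values do not settle whether arrays with the same number share a batch or a pairing. The replicate block gave 2 calls on day 4 between emerin knockout and control and 1 for lamin A/C knockout day 4 minus day 3, and kept every other count within 1.5 times.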
